A study of Sus scrofa with 12 samples.

Results

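The genes described here copy DNA and divide the cell: 40 gene symbols chosen by function, in 3 roles (DNA replication, mitosis, and the kinetochore with its checkpoint). Of these, 25 were matched to an identifier among the 22861 genes of the table, 6 for replication, 10 for mitosis and 9 for the kinetochore and checkpoint. The other 15 symbols (MCM5, MCM6, MCM7, PCNA, RRM2, TYMS, GINS2, CDK2, CCNA2, PLK1, AURKA, MKI67, BIRC5, MAD2L1 and KNTC1) were not matched and were not analysed here. The values are RPKM (exon reads scaled to exon length and to the mapped reads of each library) from mRNA sequencing of Biceps femoris, a thigh muscle, in male piglets at postnatal day 1. The animals were 5 Iberian x Duroc crossbreds (IBxDU, Duroc sire on an Iberian sow), set against 6 pure Iberian piglets (IB, Iberian sire on an Iberian sow), so every piglet had an Iberian mother. Piglets came from several litters that could each give more than 1 piglet, and the sources used here do not say which litter an animal is from, so p-values treat any littermates as independent.

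Before a cell copies its DNA, origins are loaded with the MCM helicase by CDC6 and CDT1, and ribonucleotide reductase supplies the deoxynucleotides. Entry into mitosis is driven by CDK1 with a B-type cyclin, and the kinetochore then joins each chromosome to spindle microtubules while the spindle checkpoint holds back anaphase until all are attached. Muscle fibres have left the cell cycle, so in newborn muscle such transcripts are known chiefly from dividing muscle precursors, connective tissue cells, blood vessel cells and immune cells.

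Where a gene is given in every animal, the values follow the order IBxDU-402, IBxDU-412, IBxDU-426, IBxDU-427 and IBxDU-429, and IB-323, IB-330, IB-345, IB-431, IB-503 and IB-504. One library stood apart in these genes. IBxDU-402 had the highest RPKM of the 11 animals in 22 of the 25 members, against 22% of the 11875 genes tested. Differences between the genetic types are therefore also given without this piglet. Recovered exon reads ran between 12592057 and 20574654 per IBxDU piglet and between 11601648 and 20149012 per IB piglet, and IBxDU-402 was among the shallower libraries with 12592057. The 25 members together took between 2089 and 8157 of these reads in an IBxDU piglet and between 2026 and 5108 in an IB piglet. Most members were low: in 10 of the 25 the animal with the fewest reads had under 10, and only 7 had at least 50 reads in every animal. Muscle fibre markers were abundant, with summed RPKM of 27700 to 59600 in IBxDU and 38700 to 46300 in IB over 6 matched markers of 10.

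No member differed between the genetic types at a Benjamini-Hochberg adjusted p under 0.05 in limma over 11875 genes. Across all genes tested 2 did (0.0168%), both higher in IBxDU. At an unadjusted p under 0.05, 1 of the 20 tested members was higher in IBxDU, ZW10, and 1 was lower, ZWILCH. The shares over all genes tested were 6.00% higher and 2.02% lower (8.03% in either direction), so neither count of members stood clear of the background. The groups overlapped in RPKM in every member, while in 1.04% of all genes tested they did not (0.808% higher and 0.227% lower in IBxDU). The other 5 members, CDC6, CCNE2, BUB1, CENPE and CENPF, stayed under the filter of a mean above 0.5 RPKM in at least 1 genetic type and have values but no place among the tested genes. TTK and NDC80 passed that filter through the IBxDU mean alone, which IBxDU-402 carries.

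ZWILCH and ZW10 encode partners in the RZZ complex, which sits on unattached kinetochores and recruits dynein and the checkpoint proteins. ZWILCH (ENSSSCG00000004946) had 7.09, 1.63, 6.18, 1.52 and 1.76 RPKM in IBxDU, against 6.90, 7.13, 10.5, 7.32, 9.62 and 11.2 RPKM in IB. The IBxDU animals split: 3 of them lay between 1.52 and 1.76 RPKM, far under every IB piglet, while IBxDU-402 and IBxDU-426 came close to the lower IB values, and only IBxDU-402 reached into the IB range. The means were 3.64 ± 2.76 RPKM in IBxDU (SD, n = 5) and 8.78 ± 1.90 RPKM in IB (SD, n = 6). The log2 fold change of log2(RPKM + 0.1) was -1.55 (SE 0.39, limma unadjusted p = 0.0015, Benjamini-Hochberg adjusted p = 0.405 over 11875 genes). An exact two-sided permutation test of the same 11 values gave p = 0.00433, where 462 relabelings allow 0.00216 at the least. All 5 IBxDU piglets were under the IB mean.

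Leaving out IBxDU-402 moved the ZWILCH log2 fold change to -1.86, and over all alternatives the limma adjusted p ranged between 0.221 and 0.989. ZWILCH met the limits the study used for its own calls, an unadjusted p of 0.01 or less with a fold of 1.5 or more, which in limma 0.522% of the genes tested met in the lower direction and 0.985% in the higher. The study called ZWILCH in these same animals, so its direction here is no independent evidence. It also cites an earlier comparison of Longissimus dorsi at weaning in which ZWILCH was higher in IB. Those data were not examined here. The value rests on moderate depth, with 39 to 251 reads in IBxDU and 203 to 383 in IB. In the Sscrofa11.1 annotation, which is a later build than the one used for mapping, the ZWILCH gene span overlaps that of LCTL and neighbours RPL4, which encodes a ribosomal protein. LCTL stayed between 0 and 0.192 RPKM in IBxDU and between 0.0357 and 0.215 RPKM in IB, and RPL4 averaged 889 ± 123 RPKM in IBxDU and 882 ± 129 RPKM in IB (SD, n = 5 and 6).

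ZW10 (ENSSSCG00000015050), the partner that binds dynein's adaptors and also serves in membrane traffic, was the most abundant kinetochore member and lay the other way. It had 7.17, 7.02, 8.06, 7.85 and 11.6 RPKM in IBxDU, against 5.74, 7.06, 6.20, 6.82, 5.23 and 5.41 RPKM in IB. The groups met only at IBxDU-412 and IB-330, which differed by less than 0.1 RPKM, and IBxDU-429 stood above the rest. The means were 8.33 ± 1.85 RPKM in IBxDU (SD, n = 5) and 6.08 ± 0.749 RPKM in IB (SD, n = 6), with a log2 fold change of 0.43 (SE 0.17, limma unadjusted p = 0.0266, Benjamini-Hochberg adjusted p = 0.572). The exact two-sided permutation test gave p = 0.00649, and 5 of 5 IBxDU piglets were above the IB mean. This difference was the smaller of both and the less stable. Without IBxDU-402 it was 0.48, without IBxDU-429 it was 0.31 with an unadjusted limma p of 0.0704, and with upper quartile scaling it was 0.33 with an unadjusted limma p of 0.0508.

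The ratio of ZWILCH to ZW10 RPKM within each library was 0.988, 0.232, 0.767, 0.193 and 0.152 in IBxDU, against 1.2, 1.01, 1.70, 1.07, 1.84 and 2.07 in IB. Every IBxDU ratio was under every IB ratio, the nearest pair being IBxDU-402 and IB-330. The ratio was built from the members already picked out above and so is given with no test. KNTC1, which encodes the remaining RZZ subunit, was among the symbols not matched. The plot of single genes by genetic type shows both RZZ genes beside members that followed IBxDU-402.

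**Figure D1:**
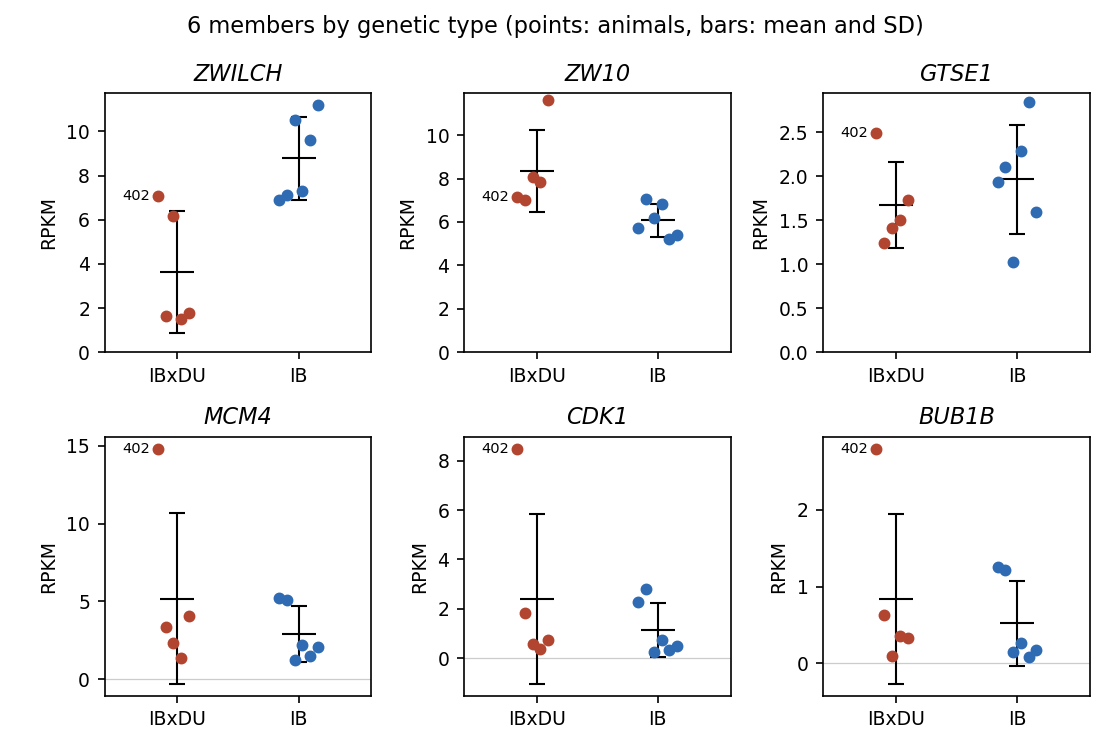
RPKM (vertical axis, linear) of 6 members in 5 IBxDU piglets (left, red) and 6 IB piglets (right, blue), with the mean and SD as black bars and IBxDU-402 labelled by its number. ZWILCH averaged 3.64 RPKM in IBxDU and 8.78 RPKM in IB and ZW10 8.33 RPKM in IBxDU and 6.08 RPKM in IB, while MCM4, CDK1 and BUB1B show 1 IBxDU piglet far above the other 10.

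Among the replication members, 6 of 6 had a higher mean log2 value in IBxDU, with a median log2 fold change of 0.62, and none of the 5 tested reached an unadjusted p under 0.05. With all animals 7947 of the 11875 genes tested were also higher in IBxDU, the background for such counts in each role. The replication median was 0.18 without IBxDU-402 and 0.98 without IBxDU-427. For all genes tested the median was 0.13 with all animals, 0.10 without IBxDU-402 and 0.16 without IBxDU-427. RRM1, the large subunit of ribonucleotide reductase, was the most abundant member of all at a mean of 11.2 RPKM. It had 16, 12.0, 9.12, 9.35 and 12.3 RPKM in IBxDU, against 13.2, 11.3, 10.5, 10.3, 9.48 and 10 RPKM in IB. The groups overlapped almost throughout, and the log2 fold change of 0.10 (SE 0.18) turned to -0.02 without IBxDU-402 and to -0.01 with upper quartile scaling.

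The MCM genes, whose products form the helicase that unwinds DNA at the fork, varied much more than RRM1. MCM2 had 12.7 RPKM in IBxDU-402 and 0.974 to 3.47 RPKM in the other 4 IBxDU piglets, against 1.01 to 4.93 RPKM in IB. MCM3 had 10.6 RPKM in IBxDU-402 and 0.733 to 2.45 RPKM in the others of that type, against 0.545 to 3.99 RPKM in IB. MCM4 had 14.8 RPKM in IBxDU-402 and 1.34 to 4.07 RPKM in its group mates, against 1.24 to 5.23 RPKM in IB. In all 3 genes the next animals after IBxDU-402 were IB-323 and IB-330, not another crossbred. The log2 fold changes were 0.66 for MCM2, 0.82 for MCM3 and 0.54 for MCM4, and without IBxDU-402 they were 0.17, 0.29 and 0.04. CDT1, a licensing factor, and CDC6, the ATPase that loads the helicase with it, were lower. CDT1 had 5.90 RPKM in IBxDU-402 and 0.416 to 1.17 RPKM in the rest of IBxDU, against 0.253 to 2.26 RPKM in IB. CDC6 had 1.26 RPKM in IBxDU-402 and 0.176 to 0.420 RPKM in the rest, against 0.0871 to 0.582 RPKM in IB. As little as 4 reads stood behind a CDC6 value, so its order among the low animals is not resolved.

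**Figure D2:**
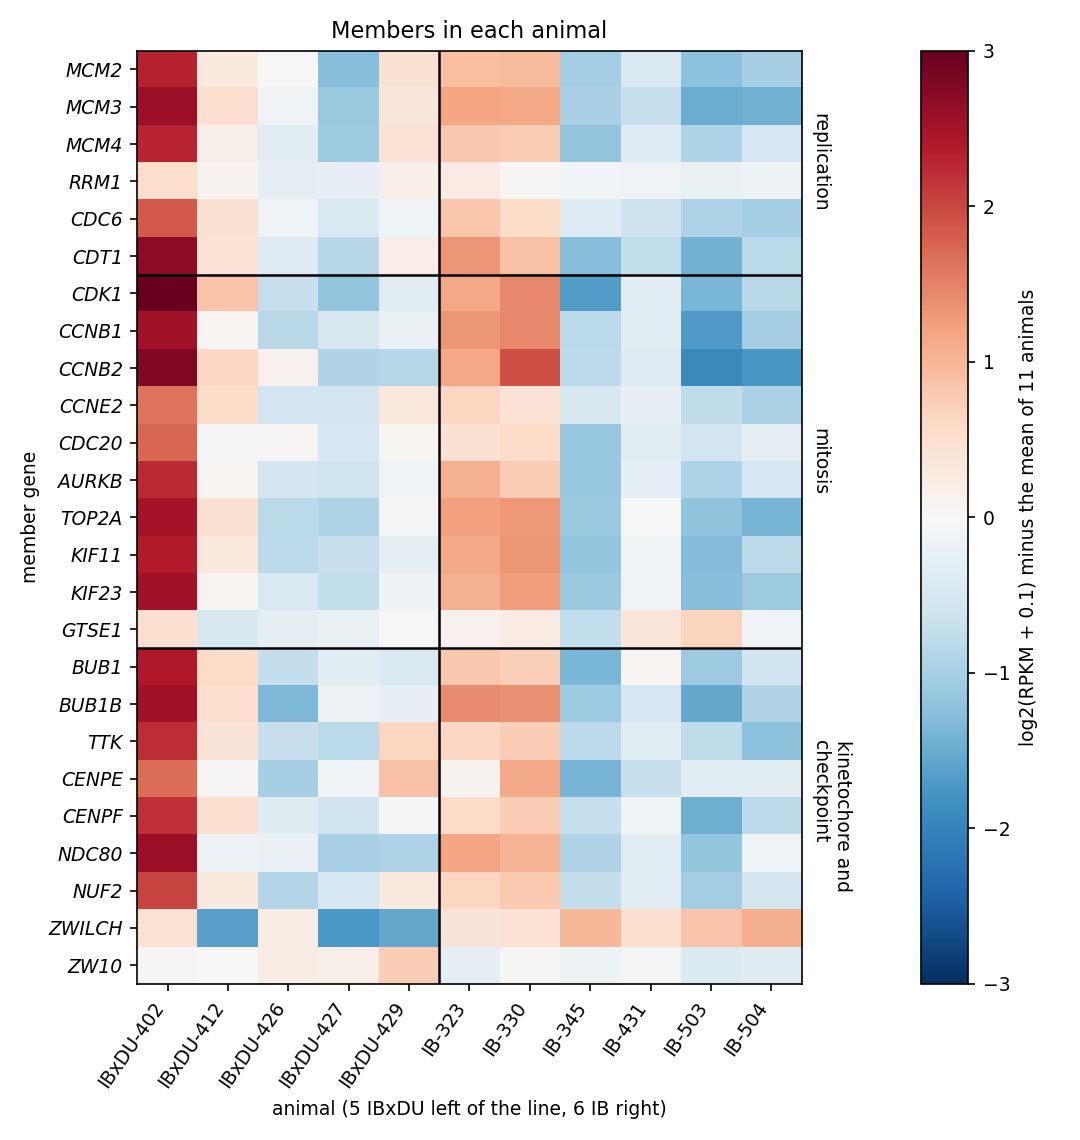
Each cell is log2(RPKM + 0.1) of 1 member (vertical axis) in 1 animal (horizontal axis, IBxDU left of the line, IB right) minus that gene's mean over the 11 animals. The IBxDU-402 column is red in nearly all members and the IB-323 and IB-330 columns paler red, while ZWILCH is blue in 3 IBxDU piglets and RRM1, GTSE1 and ZW10 vary little.

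For the mitosis members, 9 of 10 had a higher mean log2 value in IBxDU and the median log2 fold change was 0.45, but without IBxDU-402 the median was -0.11 and 3 of 10 were higher. Leaving out another single animal also moved it by over 1.5 times, to 0.68 without IBxDU-427, 0.69 without IB-323, 0.68 without IB-330, 0.28 without IB-345 and 0.24 without IB-503. None of the 9 tested reached an unadjusted p under 0.05. AURKB, the kinase of the chromosomal passenger complex, was the most abundant at a mean of 2.49 RPKM. It had 9.22, 1.97, 1.25, 1.22 and 1.78 RPKM in IBxDU, against 4.10, 3.28, 0.811, 1.52, 0.942 and 1.27 RPKM in IB. After IBxDU-402 the pair IB-323 and IB-330 led, and the remaining 8 animals lay under 2 RPKM. The log2 fold change was 0.39 (SE 0.53) and turned to -0.12 (SE 0.42) without IBxDU-402.

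CDK1, the kinase that starts mitosis, had 8.49, 1.83, 0.566, 0.373 and 0.745 RPKM in IBxDU, against 2.28, 2.80, 0.233, 0.751, 0.313 and 0.497 RPKM in IB. The highest animal was 36.4 times the lowest, with 7 reads in the lowest. Its cyclin partners CCNB1 and CCNB2 followed the same order at the top. CCNB1 had 6.06 RPKM in IBxDU-402, with 0.502 to 1.02 RPKM in the other IBxDU piglets, against 0.228 to 2.82 RPKM in IB. CCNB2 had 3.17 RPKM in IBxDU-402, with 0.158 to 0.635 RPKM in the other IBxDU piglets, against 0.0255 to 1.73 RPKM in IB. The CCNB2 value of 1.73 RPKM in IB-330 was the nearest any animal came to IBxDU-402 among the members led by these 3 animals. TOP2A, the topoisomerase that untangles sister DNA, had 9.18 RPKM in IBxDU-402 and 0.775 to 2.18 RPKM in the other IBxDU piglets, against 0.531 to 3.97 RPKM in IB.

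The spindle motors KIF11, which pushes the poles apart, and KIF23, which bundles microtubules of the central spindle, were close in level. KIF11 had 3.67 RPKM in IBxDU-402 and 0.324 to 0.812 RPKM in the rest of IBxDU, against 0.196 to 1.74 RPKM in IB. KIF23 had 4.29 RPKM in IBxDU-402 and 0.361 to 0.712 RPKM in the rest of IBxDU, against 0.216 to 1.71 RPKM in IB. CDC20, the activator of the anaphase promoting complex, varied less, with 6.25 RPKM in IBxDU-402 and 1.26 to 1.91 RPKM in the rest of IBxDU, against 0.778 to 2.75 RPKM in IB. CCNE2, a cyclin of the G1 to S step, reached 1.07 RPKM in IBxDU-402 and 0.494 RPKM at most in any other animal. Its span overlaps that of INTS8 in Sscrofa11.1, and INTS8 averaged 4.39 ± 0.669 RPKM in IBxDU and 3.63 ± 0.671 RPKM in IB (SD, n = 5 and 6). GTSE1 (ENSSSCG00000000002), a microtubule-binding protein of G2 and S phase, was the exception. It had 2.49, 1.24, 1.41, 1.5 and 1.73 RPKM in IBxDU, against 1.93, 2.11, 1.02, 2.29, 2.85 and 1.59 RPKM in IB. Here IB-503 was highest, a piglet near the bottom for most members, and the log2 fold change was -0.20 (SE 0.27), or -0.34 without IBxDU-402.

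Of the kinetochore and checkpoint members, 8 of 9 had a higher mean log2 value in IBxDU, with a median log2 fold change of 0.45 that was 0.01 without IBxDU-402. Apart from ZWILCH, ZW10 and NUF2, each of them averaged under 0.7 RPKM over the 11 animals. Besides IBxDU-402, leaving out IBxDU-426 or IB-330 moved this median by over 1.5 times, to 0.79 and 0.74. NUF2 and NDC80 encode arms of the NDC80 complex, which grips the microtubule. NUF2 had 4.11 RPKM in IBxDU-402 and 0.460 to 1.17 RPKM in the other 4 IBxDU piglets, against 0.402 to 1.69 RPKM in IB. NDC80 had 2.49 RPKM in IBxDU-402 and 0.122 to 0.283 RPKM in the other 4, against 0.0944 to 0.894 RPKM in IB. Despite the shared complex their log2 fold changes were 0.44 for NUF2 and 0.11 for NDC80 with all animals, and -0.01 for NUF2 and -0.52 for NDC80 without IBxDU-402, on as few as 5 reads for NDC80. The checkpoint kinases BUB1 and TTK, and BUB1B (BubR1), which restrains CDC20, were near the limit of detection in most animals. BUB1B had 2.80 RPKM in IBxDU-402 and 0.0981 to 0.622 RPKM in the other 4, against 0.075 to 1.25 RPKM in IB.

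BUB1 had 1.57 RPKM in IBxDU-402 and 0.0931 to 0.372 RPKM in the other 4, against 0.0219 to 0.449 RPKM in IB, and this lead of 3.50 times over the next animal was the largest of any member. TTK had 1.83 RPKM in IBxDU-402 and 0.135 to 0.544 RPKM in the other 4, against 0.075 to 0.583 RPKM in IB. CENPE, a motor that carries chromosomes to the spindle equator, and CENPF, a large protein of the outer kinetochore, completed the set. CENPE had 0.978 RPKM in IBxDU-402 and 0.0710 to 0.525 RPKM in the other 4, against 0.0279 to 0.640 RPKM in IB. CENPF had 1.47 RPKM in IBxDU-402 and 0.126 to 0.373 RPKM in the other 4, against 0.0231 to 0.470 RPKM in IB. In TTK and CENPE, IBxDU-429 passed IB-323 to join IBxDU-402 and IB-330 at the top.

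**Figure D3:**
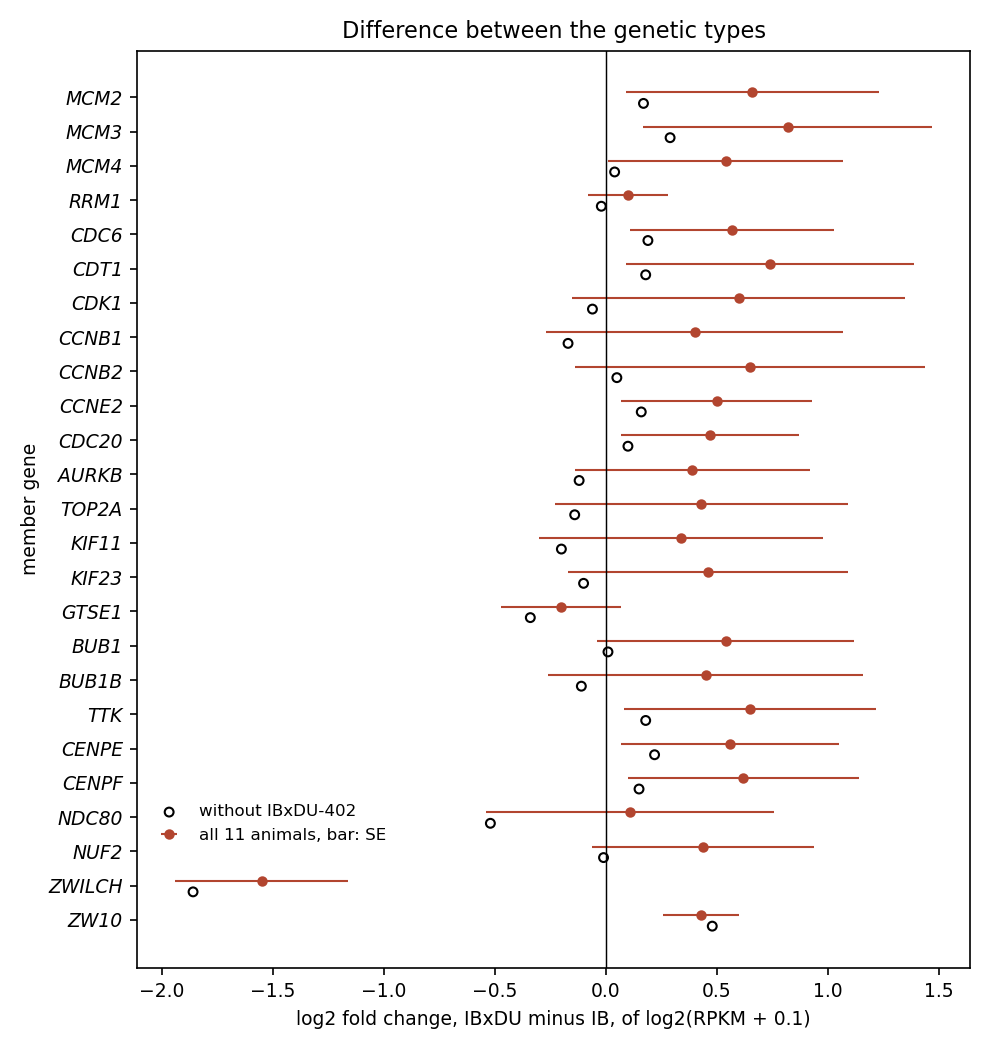
Log2 fold change (horizontal axis, IBxDU minus IB, of log2(RPKM + 0.1)) for the 25 members (vertical axis), with all 11 animals as red points with SE bars and without IBxDU-402 as open circles. With all animals 23 of 25 are above 0 and without IBxDU-402 13 of 25, and ZWILCH at -1.55 is the farthest from 0. Over all genes tested 7947 of 11875 were above 0 with all animals.

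Taken over the 3 roles, 23 of 25 members had a higher mean log2 value in IBxDU with all animals, and 13 of 25 without IBxDU-402. Over all genes tested, 7947 of 11875 were higher in IBxDU with all animals. The median log2 fold change of the members was 0.47 with all animals and 0.01 without IBxDU-402, beside 0.13 and 0.10 for all genes tested. Apart from ZWILCH and ZW10, the 18 tested members had unadjusted limma p between 0.227 and 0.869 and Benjamini-Hochberg adjusted p between 0.725 and 0.965.

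The members varied widely between animals of the same genetic type. The SD of log2(RPKM + 0.1) within the genetic types had a median of 1.17 over the 20 tested members, against 0.43 over all genes tested. The latter were not matched to the members for abundance, and low read counts widen this SD. RRM1 and ZW10, the most abundant members, had 0.25 and 0.23. In 18 of 25 members the 3 highest animals were IBxDU-402, IB-323 and IB-330, against 4.99% of all genes tested. Over the other 10 animals, IB-323 and IB-330 were the highest pair in 18 of 25, against 5.71%. In those 18 members IBxDU-402 exceeded the next animal by 1.83 to 3.50 times, with a median of 2.46. The exceptions were RRM1, CCNE2, GTSE1, TTK, CENPE, ZWILCH and ZW10. Since IBxDU-402 is a crossbred and the other pair pure Iberian, the order of animals did not follow the genetic type. These counts were chosen after the values were seen and describe these libraries only.

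By role, the median deviation of the replication members from their mean over the 11 animals was 2.30, 0.37, -0.20, -0.98 and 0.28 in IBxDU, against 0.88, 0.82, -1.0, -0.52, -1.08 and -0.91 in IB, all on the log2 scale. For the mitosis members it was 2.43, 0.21, -0.57, -0.63 and -0.12 in IBxDU, against 1.10, 1.27, -1.11, -0.27, -1.23 and -0.89 in IB. For the kinetochore and checkpoint members it was 2.20, 0.28, -0.69, -0.52 and -0.04 in IBxDU, against 0.61, 0.74, -0.78, -0.33, -1.04 and -0.55 in IB. All 3 roles thus gave nearly the same ranking of animals, with IB-345 and IB-503 at the low end. Over all genes tested the same measure stayed between -0.16 and 0.30 in IBxDU and between -0.21 and 0.12 in IB.

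**Figure D4:**
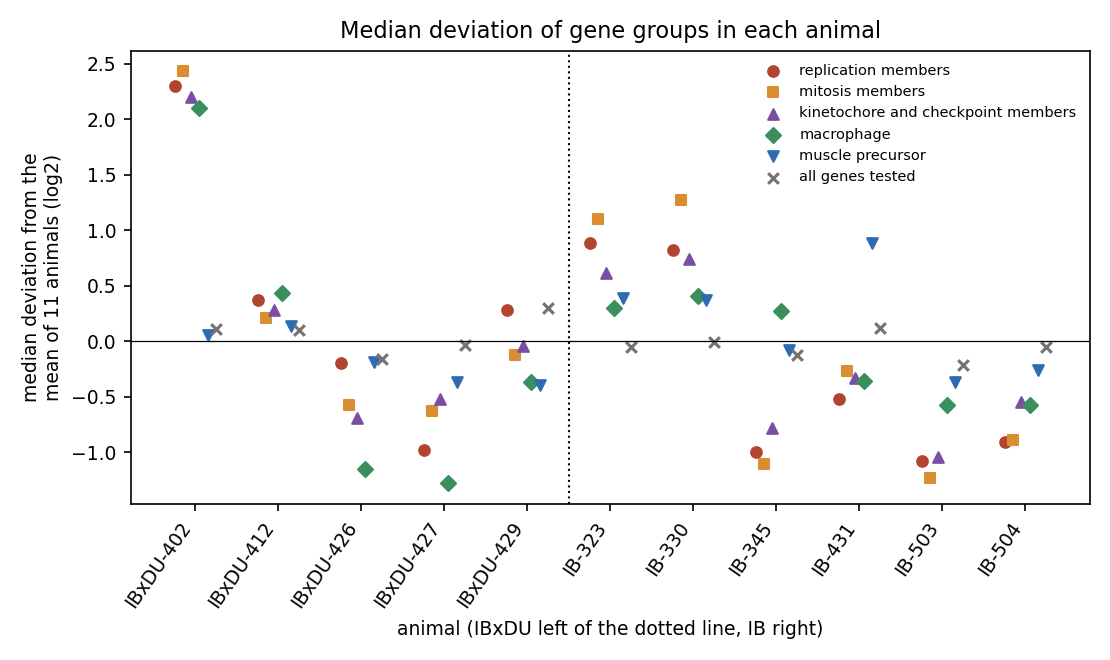
Median deviation (vertical axis, log2) of each gene group from its mean over the 11 animals, in each animal (horizontal axis, IBxDU left of the dotted line, IB right). In IBxDU-402 the 3 member roles (2.20 to 2.43) and the macrophage markers (2.10) lie together, far above the muscle precursor markers (0.06) and all genes tested (0.11). Of the marker lists not drawn, T cell (1.84), B cell (1.44) and fibro-adipogenic (1.21) were also high in IBxDU-402. Endothelial (0.09), erythroid (0.30) and muscle fibre (-0.13) markers were not.

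Markers of other cells moved with the members in some animals. In a bulk sample, more cells of a type and more RNA per cell cannot be told apart. Macrophage markers (6 matched of 9) summed to 163, 45.7, 13.8, 12.6 and 26.1 RPKM in IBxDU, against 50.5, 59.5, 39.1, 25.0, 21.9 and 23.8 RPKM in IB. All 6 markers were highest in IBxDU-402, as were 22 of the 25 members. Only 2 of the 6 had IBxDU-402, IB-323 and IB-330 as the 3 highest animals. In IB-345 the median deviation on the log2 scale was 0.27 for the macrophage markers and -0.98 for all members. The 25 members summed to 145, 47.2, 39.7, 30.9 and 49.8 RPKM in IBxDU, against 69.7, 70.6, 36.9, 42.1, 35.4 and 39.0 RPKM in IB. Fibro-adipogenic markers (6 matched of 8) summed to 508 to 3750 RPKM in IBxDU and 759 to 2030 RPKM in IB. PDGFRA, a defining marker, was listed at 0 in every animal. The sum was highest in IBxDU-402, where COL3A1 made up most of it at 2890 RPKM. Of the 5 markers above 0, 3 were highest in IBxDU-402, while PDGFRB was highest in IBxDU-429 and PDPN in IBxDU-427. T cell markers (6 of 8) summed to 1.06 to 11.4 RPKM in IBxDU and 1.24 to 5.75 RPKM in IB, with the maximum and 5 of the 6 markers highest in IBxDU-402. B cell markers (5 of 7) summed to 0.932 to 2.78 RPKM in IBxDU and 0.411 to 3.19 RPKM in IB, and 4 of the 5 were highest in IBxDU-402. The median deviation there was 1.84 for T cell and 1.44 for B cell markers on the log2 scale, so both moved with the members in that piglet, at low levels.

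Muscle precursor markers (6 matched of 10) shared that order only in part. They summed to 105, 156, 76, 60.0 and 65.1 RPKM in IBxDU, against 135, 162, 106, 294, 93.3 and 80.3 RPKM in IB. The highest was IB-431, a piglet under the mean for most members, and MYF6 made up most of its sum with 222 RPKM. MYF6 was also the largest part in IBxDU-412 (100 RPKM), IB-323 (69.8 RPKM) and IB-330 (95.9 RPKM). The order of the sums thus leans on MYF6 and is not read as precursor content. By median deviation on the log2 scale IBxDU-402 was near the mean at 0.06, while IB-431 led at 0.88 and IB-323 and IB-330 came next at 0.39 and 0.37. Endothelial markers (5 of 8) summed to 117 to 209 RPKM in IBxDU and 127 to 159 RPKM in IB, and erythroid markers (8 of 10) to 589 to 752 RPKM in IBxDU and 382 to 591 RPKM in IB. Both sums were also highest in IBxDU-402, where 2 of the 5 endothelial and 4 of the 8 erythroid markers were highest. Nearly all of the erythroid sum came from HBB, at 366 to 723 RPKM in IBxDU and 285 to 555 RPKM in IB, and from TFRC, a transferrin receptor that other cells express too, at 18.3 to 216 RPKM in IBxDU and 12.5 to 122 RPKM in IB. HBB alone overlapped widely, with a log2 fold change of 0.15 (SE 0.23), and TFRC was at its IBxDU minimum in IBxDU-402. The part of any of these cells in the levels of the members was not tested.

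The wider pathway gave the same picture for mitosis and a weaker one for replication. Of 31 other mitosis genes matched (26 tested), none passed in limma at an adjusted or an unadjusted p under 0.05, 30 were highest in IBxDU-402, and 23 had IBxDU-402, IB-323 and IB-330 as the 3 highest animals. Their median log2 fold change was 0.39 with all animals and -0.13 without IBxDU-402. Of 32 other replication genes, 19 were highest in IBxDU-402 and 8 had those 3 animals on top, with a median SD of 0.52 log2. None of the 32 passed a Benjamini-Hochberg adjusted p under 0.05 in limma. Against 2.02% of all genes tested, 1 was lower in IBxDU at an unadjusted p under 0.05. That gene was POLD2, a subunit of DNA polymerase delta, with 8.67 ± 2.32 RPKM in IBxDU and 11.9 ± 2.11 RPKM in IB (SD, n = 5 and 6) and a log2 fold change of -0.47 (limma adjusted p = 0.576), or -0.60 without IBxDU-402. Its unadjusted limma p passed 0.05 when IBxDU-426, IBxDU-427, IBxDU-429, IB-431 or IB-504 was left out, reaching 0.0851 at most. Of 18 other kinetochore and checkpoint genes (15 tested), none passed in limma at either limit, and 12 were highest in IBxDU-402.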

How the data were processed

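RNA of the Biceps femoris of 11 male piglets was analysed. The labels list 12 animals, and 1 IBxDU animal without values was not analysed here. The authors mapped reads to Sscrofa10.2 and deposited RPKM per gene and animal, together with the p-value and fold change of their own comparison, which were not used. Strand use in counting is not given in the sources used here. The gene spans of 8 of the 25 members overlap another gene in Sscrofa11.1.

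Whole reads, recovered from the RPKM steps in 99.92% of the 16953 genes above 0 (tolerance 0.02 reads), served only to state depth. The remaining 14 genes, the most abundant, are left out of the sums.

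Genes with a mean above 0.5 RPKM in either genetic type (11875) were tested on log2(RPKM + 0.1) with limma 3.58.1 (R 4.3.3, trended variance, genetic type only) and Benjamini-Hochberg adjustment. Such fold changes understate those of low genes. Members under the filter take their fold change from a fit with no filter. Exact permutation tests used Python 3.11.15 and scipy 1.17.1. Code was tested on simulated data. Symbols came from a gene table.

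Members and lists were chosen with earlier results of these data known. Named in full were ZWILCH, ZW10, members at an unadjusted p under 0.05 and the most abundant member of each role, and from each other list up to 4 genes with the smallest p under 0.05. CDK1 and GTSE1 were given in full, and the members' other values by range, after their values were seen. The lists were other replication, mitosis and kinetochore genes, cell cycle regulators, the anaphase promoting complex, and markers of muscle fibre, muscle precursor, fibro-adipogenic, endothelial, erythroid, macrophage, T and B cells. Alternatives were a pseudocount of 1, no filter, upper quartile and median-of-ratios scaling, limma without the trend, and leaving out each animal.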

Additional observations from a re-analysis of the deposited data

Results flagged for a closer look

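In 6 of the 50 sets formed by 1 member and 1 genetic type, an animal lay so far from the others that its gap to the nearest, over the whole range on the log2 scale, passed Dixon's 95% critical value. Chance does so in about 1 of 20 sets. In IBxDU-402 these were CCNB1 at 6.06 RPKM, CDC20 at 6.25 RPKM, AURKB at 9.22 RPKM, KIF23 at 4.29 RPKM and NDC80 at 2.49 RPKM, each the highest of the 5 IBxDU piglets. They belong to the mitosis and kinetochore roles, and the members share an animal, so they are not separate events. In IBxDU-429 it was ZW10 at 11.6 RPKM, a gene in which IBxDU-402 was within the range of its group. No IB piglet was set apart in this way in any member.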

How the results depend on the processing

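No member passed the adjusted threshold under any alternative. ZWILCH kept its direction throughout, with log2 fold changes of -1.86 to -1.33 over the fits that leave out 1 animal each. Members at an unadjusted p under 0.05 were 1 with upper quartile and 1 with median-of-ratios scaling, the member lost being ZW10, and 1 to 2 with an animal left out (ZW10 lost without IBxDU-429, IB-503 or IB-504). RRM1 turned to -0.01 with upper quartile scaling, to -0.02 with median-of-ratios scaling and ranged from -0.02 to 0.18 with an animal left out, and AURKB ranged from -0.12 to 0.64, both negative without IBxDU-402. The median log2 fold change by role ran from 0.18 to 0.98 for replication, from -0.11 to 0.69 for mitosis and from 0.01 to 0.79 for kinetochore members with an animal left out, and was 0.42, 0.23 and 0.20 with a pseudocount of 1. The span of the animal medians was 3.37 log2 for replication, 3.66 for mitosis and 3.25 for kinetochore members. With a pseudocount of 1 it was 2.07 for mitosis and 1.35 for kinetochore members, and with an animal left out it ran from 1.95 to 3.39, from 2.51 to 3.68 and from 1.80 to 3.29 in the same order of roles, lowest each time without IBxDU-402. Over all genes, those past the adjusted threshold were 1 with upper quartile scaling, 1 with median-of-ratios scaling, 1 without the trend and 1 to 2 with an animal left out. At an unadjusted p under 0.05, 713 genes were higher and 240 lower in IBxDU, against 405 and 479 with upper quartile scaling, 353 and 533 with median-of-ratios scaling, and 953 in either direction against 534 (without IBxDU-429) to 1410 (without IBxDU-412) with an animal left out. By direction, 339 were higher without IBxDU-429, and 374 were lower without IBxDU-402, 157 without IBxDU-426 and more than 374 without IBxDU-412. The scalings moved the median log2 fold change of all genes, 0.13, to 0.02 and 0.01, and that of the tested members, 0.45, to 0.36 and 0.34. The count of members led by IBxDU-402, IB-323 and IB-330 was 19 under both scalings, an alternative chosen after seeing the data. The cause of these shifts was not tested. No paired analysis was possible because the animal numbers of the genetic types are not shared. Low read counts limit the order of animals in the members under 0.5 RPKM, and no batch is given.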

Other observations

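Regulators of the cell cycle outside the 3 roles did not move as a block. Of 25 matched (22 tested), none passed a Benjamini-Hochberg adjusted p under 0.05 in limma. Against 6.00% of all genes tested, 1 was higher in IBxDU at an unadjusted p under 0.05. This was TFDP1, the dimer partner of the E2F transcription factors, with, in the order of animals used above, 14.5, 13.8, 16.6, 14.6 and 19.4 RPKM in IBxDU, against 8.63, 8.21, 8.72, 10.3, 10 and 11.9 RPKM in IB. Every IBxDU piglet was above every IB piglet, as in 0.808% of all genes tested. The exact two-sided permutation p was 0.00216, the smallest that 462 relabelings allow, which largely restates that lack of overlap. The log2 fold change was 0.71 (SE 0.16, limma adjusted p = 0.405, range 0.181 to 0.934 over the alternatives). TFDP1 kept 0.73 without IBxDU-402, 0.60 with upper quartile scaling and 0.59 with median-of-ratios scaling. E2F1, its partner in S phase entry, instead ran with the members, at 8.48 RPKM in IBxDU-402 and 0.747 to 2.55 RPKM in the other 4 IBxDU piglets, against 0.525 to 5.01 RPKM in IB. MYBL2 and FOXM1, activators of mitotic genes, also had IBxDU-402, IB-323 and IB-330 as their 3 highest animals.

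The anaphase promoting complex, the ubiquitin ligase that CDC20 activates, was expressed at a steadier level. The 7 matched genes of its list, which include FZR1, an activator rather than a subunit, had a median SD of 0.29 log2 over the animals. Of the 7, 1 was highest in IBxDU-402, against 22% of all genes tested. None passed the adjusted threshold in limma. Of the 7, 2 were higher in IBxDU at an unadjusted p under 0.05, against 6.00% of all genes tested. CDC23 had 5.45 ± 1.13 RPKM in IBxDU and 3.89 ± 0.620 RPKM in IB (SD, n = 5 and 6), and ANAPC7 had 14.3 ± 2.88 RPKM in IBxDU and 10.9 ± 1.26 RPKM in IB (SD, n = 5 and 6). The log2 fold changes were 0.47 for CDC23 and 0.38 for ANAPC7, or 0.44 and 0.39 without IBxDU-402. Both calls ended with upper quartile scaling (unadjusted limma p of 0.065 for CDC23 and 0.153 for ANAPC7) and median-of-ratios scaling (0.0748 and 0.203), and without IBxDU-402, IBxDU-426, IBxDU-429 or IB-504, that of CDC23 also without IB-503 and that of ANAPC7 also without IB-323, IB-330 or IB-431. The median log2 fold change of these 7 genes was 0.36 with all animals and 0.39 without IBxDU-402. Among the cell type markers, PDGFRB, a receptor of pericytes and stromal cells, was higher at an unadjusted limma p of 0.034, with 19.6 ± 4.0 RPKM in IBxDU and 13.9 ± 4.46 RPKM in IB (SD, n = 5 and 6) and a log2 fold change of 0.54, or 0.53 without IBxDU-402. This call ended with upper quartile scaling (unadjusted limma p of 0.0514) and median-of-ratios scaling (0.053), and without IBxDU-402, IBxDU-426, IBxDU-429, IB-345, IB-503 or IB-504. CENPP, a kinetochore gene, did not overlap between the groups at 1.29 to 1.48 RPKM in IBxDU and 0.828 to 1.27 RPKM in IB, but its unadjusted limma p was 0.104. Over all genes tested 0.808% lay apart in this direction.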
